A study of Mus musculus with 20 samples.

Results

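The 78 genes described here are those named as subunits of the mitochondrial respiratory chain and of ATP synthase. They were taken by the symbol in the array files, as genes whose name begins with Ndufa, Ndufb, Ndufc, Ndufs or Ndufv (complex I, 35 genes), with Sdh followed by a, b, c or d (complex II, 4 genes), with Uqcr (complex III, 7 genes), with Cox4 to Cox8 (complex IV, 16 genes) or with Atp5 (complex V, 16 genes). Ndufs3, the Ndufaf assembly factors, Cox7a1 and Cox8b were left out by that rule. By their products Cox4nb, Atp5s and Cox7a2l are no subunits of these enzymes, and they stay in all counts of subunits below. Without these 3, 4 of 74 genes tested were called in liver and none of 73 in WAT, and the median log2 fold changes were 0.14 and 0.21, as with them. The 78 genes stand among 27962 gene names on the array and were read by 109 of its 41174 probes other than controls, and each gene with several probes was represented by its brightest.

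Liver and white adipose tissue (WAT) RNA of male C57BL/6 mice was compared between wild type mice, WT(HFD), and mice that lack CD44, CD44KO(HFD). All mice were 7 months old and had eaten a high-fat diet with 35% fat for 21 weeks, so the arrays hold no group on normal chow. CD44KO mice lack CD44, a cell surface receptor for hyaluronan, throughout the body, and had been backcrossed onto C57BL/6J. There were 5 arrays for each genotype and tissue, 20 in all, each read with a single dye, and p-values measure the spread between these samples, since the labels do not name the animals. The question put to the arrays was whether the expression of these subunits differed between the genotypes, in each tissue and for each complex.

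The respiratory chain passes electrons from NADH through complex I, or from succinate through complex II, to ubiquinone, then through complex III and cytochrome c to complex IV, which reduces oxygen. Complexes I, III and IV pump protons across the inner mitochondrial membrane, and complex V, the ATP synthase, uses their return to make ATP. Most subunits are encoded in the nucleus, and those measured here all are. Hepatocytes are rich in mitochondria, while white adipocytes hold fewer.

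All values are log2 of the processed signal over the 75th percentile of the array, so that 0 stands for that percentile, and a log2 fold change is CD44KO(HFD) minus WT(HFD). That percentile was 432.7 to 574.6 on the liver arrays and 1541 to 2792 on the WAT arrays, and 57.4% to 61.9% and 63.2% to 89.5% of spots were well above background. Replicate arrays correlated with r of 0.979 to 0.991 in liver and 0.871 to 0.992 in WAT, where WT(HFD) replicate 1 stood apart with 89.5% of its spots well above background. Cd44 itself was lower on every CD44KO(HFD) array than on any WT(HFD) array, with a log2 fold change of -4.21 in liver and -4.57 in WAT. The markers of each tissue were high under its label, as the summed signal of 10 hepatocyte markers was 1879 to 2607 times the 75th percentile in WT(HFD) liver and 18.6 to 52.7 times in WT(HFD) WAT, and that of 11 adipocyte markers was 107 to 137 times and 642 to 1118 times. The RNA is of whole tissue, so fewer cells of a type and less RNA per cell cannot be told apart.

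In liver, 77 of the 78 genes were bright enough to test, and 4 rose in CD44KO(HFD) mice while none fell. Across all probes tested 13.6% passed the same threshold, an adjusted p under 0.05 in limma, and 7.85% passed it as higher, so that the share among the subunits was no larger than that of the array. The 4 genes belong to different complexes. They were Ndufs8, an iron-sulfur subunit of the core of complex I, Uqcrfs1, the Rieske iron-sulfur protein of complex III, Cox7c, a small subunit of complex IV, and Atp5b, the catalytic beta subunit of ATP synthase.

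The stretches upstream of the RefSeq start sites of these 4 genes are shown because these are the subunits that passed the test. Each covers 150 bases ending at the base before the start site, read 5′ to 3′ on the gene's strand in build GRCm38.p6. Capitals mark the letters CCAAT on either strand, the box bound by the factor NF-Y. The Atp5b stretch is chr10:128083157-128083306 on the plus strand, and the others lie on the minus strand, at chr13:86046796-86046945 for Cox7c, chr19:3912775-3912924 for Ndufs8 and chr13:30545317-30545466 for Uqcrfs1.
Atp5b: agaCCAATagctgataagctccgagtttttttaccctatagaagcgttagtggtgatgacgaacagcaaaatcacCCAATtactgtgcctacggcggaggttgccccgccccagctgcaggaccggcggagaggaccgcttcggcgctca
Cox7c: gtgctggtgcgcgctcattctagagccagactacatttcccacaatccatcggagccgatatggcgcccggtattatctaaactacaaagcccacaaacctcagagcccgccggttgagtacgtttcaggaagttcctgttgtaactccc
Ndufs8: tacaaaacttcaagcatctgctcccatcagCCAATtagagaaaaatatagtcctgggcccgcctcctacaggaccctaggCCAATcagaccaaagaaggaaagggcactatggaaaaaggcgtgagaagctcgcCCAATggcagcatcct
Uqcrfs1: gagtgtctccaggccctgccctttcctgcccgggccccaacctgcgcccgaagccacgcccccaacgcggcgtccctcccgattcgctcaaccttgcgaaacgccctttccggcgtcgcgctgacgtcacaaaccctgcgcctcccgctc

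Atp5b and Ndufs8 held CCAAT in the printed stretch, and Cox7c and Uqcrfs1 did not. Within 250 bases upstream, 26 of the 63 subunit genes matched in the RefSeq promoter table (41.3%) held CCAAT, against 37.5% of 27025 genes. Letters searched for factors known to act on nuclear genes of mitochondria were rarer. GCGCANGCG, for NRF1, stood in 14 of the 63 (22.2%, against 5.86% of all genes), CCGGAAG, for GABP, in 11 (17.5%, against 7.83%), CAANATGGC, for YY1, in 3 (4.76%, against 1.54%) and TNAAGGTCA, for the estrogen-related receptors, in 2 (3.17%, against 1.3%). Both strands were searched, each motif on its own, so matches of different motifs could overlap. Among the 4 genes printed, none held the letters of NRF1, GABP or the estrogen-related receptors in these 250 bases, and Ndufs8 alone held those of YY1, further upstream than the printed stretch. A match of letters is a description and shows no binding.

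The signal of Ndufs8 in WT(HFD) liver was 2.51, 2.44, 2.60, 2.93 and 2.70, and in CD44KO(HFD) liver it was 3.26, 2.93, 3.0, 3.11 and 3.1. All CD44KO(HFD) arrays lay above all WT(HFD) arrays, the closest pair by a narrow margin. The means were 2.64 ± 0.19 and 3.08 ± 0.13 (SD, n = 5). In this comparison limma gave a difference of 0.44 with a standard error of 0.10 and an adjusted p of 0.0258, or 1.36-fold. Its probe lies on chromosome 19 from 3806006 to 3806374 of the build in the files' header, mm7.

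Uqcrfs1, on chromosome 13 from 29906041 to 29906100 in mm7, read 5.37, 5.28, 5.32, 5.61 and 5.51 in WT(HFD) liver and 5.79, 5.62, 5.75, 5.83 and 5.80 in CD44KO(HFD) liver. The lowest CD44KO(HFD) array stood just above the highest WT(HFD) array. The difference in limma was 0.34 on the log2 scale, with a standard error of 0.08 and an adjusted p of 0.0284.

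Atp5b, on chromosome 10 from 127591587 to 127591646 in mm7, read 8.0, 8.11, 7.98, 8.35 and 8.18 in WT(HFD) liver and 8.47, 8.46, 8.37, 8.49 and 8.43 in CD44KO(HFD) liver. The CD44KO(HFD) arrays lay close together, and WT(HFD) replicate 4 came closest to them. By limma it was 0.32 higher on the log2 scale, with a standard error of 0.08 and an adjusted p of 0.0320. Atp5b has 3 probes, and the others were at 0.33 and 0.44 in liver but did not pass (adjusted p = 0.0984 and 0.0959, limma). The mean of its probes did not pass either (adjusted p = 0.0555, limma).

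Cox7c, on chromosome 13 from 83112800 to 83113677 in mm7, read 2.67, 2.75, 2.99, 3.03 and 2.90 in WT(HFD) liver and 3.21, 3.05, 3.22, 3.35 and 3.26 in CD44KO(HFD) liver. The groups again met without overlap. Its rise was 0.35 on the log2 scale, with a standard error of 0.09 and an adjusted p of 0.0342 in limma. For each of the 4 genes the two-sided exact permutation test over arrays gave p = 0.0079, the smallest that 5 against 5 arrays allow. Groups that do not overlap give this value, and 11.7% of all probes tested in liver had such groups. The 4 genes were chosen by limma on the same arrays, so this p is no separate support.

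**Figure D1:**
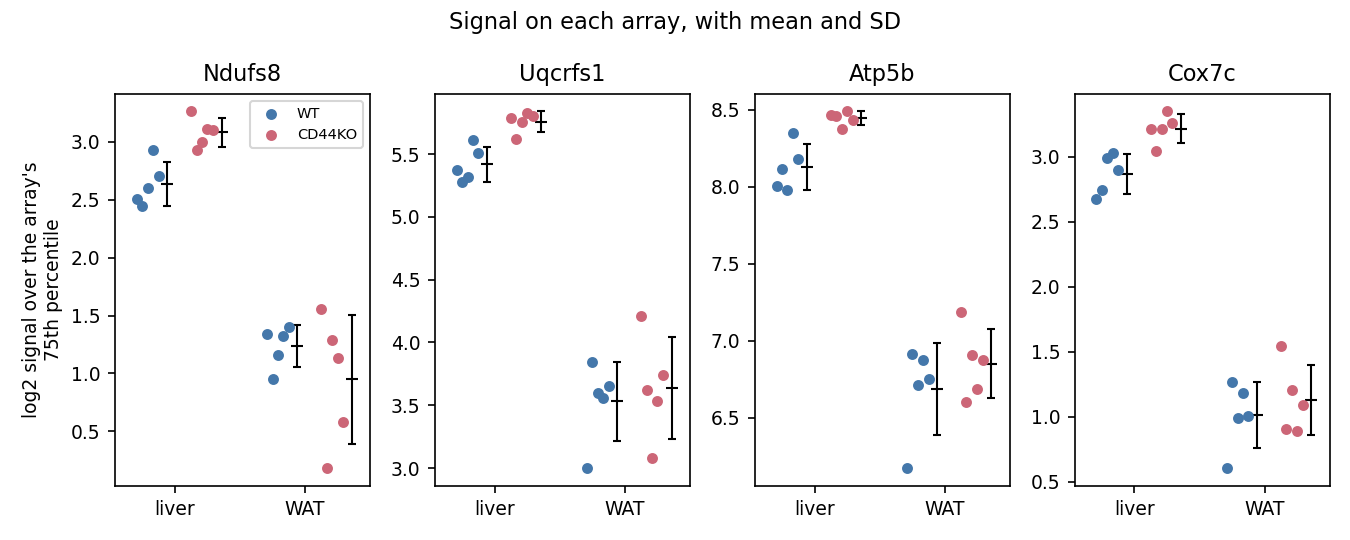
Log2 signal over the array's 75th percentile (y axis) of the 4 subunit genes that passed the test in liver, for WT (blue) and CD44KO (red) mice in liver and WAT. Each point is an array, and the black marks are the mean and SD of 5 arrays. In liver the CD44KO points lie above all WT points, and in WAT the genotypes overlap.

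The calls depended on single arrays and on the processing, and the share of all probes called moved as well. Without WT(HFD) replicate 1 or 2 or CD44KO(HFD) replicate 1, 4 or 5 none of the 77 genes passed, where 3.48% to 6.43% of all probes did. Without WT(HFD) replicate 3 or 5 there were 2, against 9.06% and 7.08% of all probes, and without WT(HFD) replicate 4 there were 10, against 15.3%. None passed after normexp background correction (2.6% of all probes), without a filter on dim probes (2.49%), in 1 fit of all 20 arrays (2.93%), with a replicate block (5.38%) or without scaling between arrays (4.65%), and 2 passed after quantile normalization (13.2%). The 4 log2 fold changes were 0.19 to 0.32 after normexp background correction.

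No other subunit of complex I passed the threshold in liver. Of its 35 genes 32 had a log2 fold change above 0, with a median of 0.14 and a range from -0.06 for Ndufs5 to 0.44 for Ndufs8. Next to Ndufs8 stood Ndufab1, the mitochondrial acyl carrier protein, at 0.29, which did not pass the threshold. Its other probes tested in liver were at 0.10 and -0.15 (adjusted p = 0.377 and 0.225, limma), so the probes of Ndufab1 differed. Complex II, which is also the succinate dehydrogenase of the citric acid cycle, had a median of 0.20 over its 4 genes. Sdhb, its iron-sulfur subunit, read 5.65, 5.81, 5.74, 6.15 and 6.04 in WT(HFD) liver and 6.38, 6.16, 6.01, 6.17 and 6.12 in CD44KO(HFD) liver, which overlap (0.29 on the log2 scale, adjusted p = 0.105, limma). Sdha, the flavoprotein, was at 0.18 (adjusted p = 0.167, limma), Sdhd, a membrane anchor, at 0.22 and Sdhc, the other anchor, at 0.13. Another probe of Sdha was at 0.33 in liver and passed the threshold (adjusted p = 0.0274, limma).

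The 7 complex III genes were all above 0 in liver, from 0.06 for Uqcr to 0.34 for Uqcrfs1, with a median of 0.12, which was -0.01 after normexp background correction. Complex IV had a median of 0.16 over 15 genes tested, 12 of them above 0. Its lowest were Cox6a2 at -0.10, Cox6b2 at -0.09 and Cox8a at -0.05. Complex V had a median of 0.15 with 15 of 16 genes above 0, and the exception was Atp5k, the e subunit, at -0.08. Atp5a1, Atp5c1 and Atp5f1, the alpha, gamma and b subunits of the synthase, and Cox5a of complex IV did not overlap between the genotypes either, but had adjusted p-values of 0.0513 to 0.0832 (limma). With these and the 4 genes called, 8 of 77 subunits did not overlap, against 11.7% of all probes. The Atp5g1, Atp5g2 and Atp5g3 genes, which encode the same c subunit of the proton ring, were at 0.22, 0.08 and 0.17.

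Over all complexes, 70 of 77 subunits had a log2 fold change above 0 in liver, against 61.3% of all probes, and their median was 0.14, against 0.08. In the brightest of 10 equal bins of probes by signal, which held 67 of the subunits, 67.2% were above 0 with a median of 0.09. Cytosolic ribosomal proteins, which have no part in respiration, had 74 of 77 above 0 and a median of 0.16, so the lift was not particular to the subunits. An unadjusted p under 0.05 was reached by 21 subunits, against 32.2% of all probes. The lead over the array depended on the scaling. After quantile normalization the subunits' median was 0.04 and that of all probes 0.05, and after normexp background correction it was 0.05 against 0.14. Within slides, the median difference was 0.15, 0.14 and 0.19 on liver slides 1, 2 and 3, where all probes gave 0.08, 0.05 and 0.07.

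**Figure D2:**
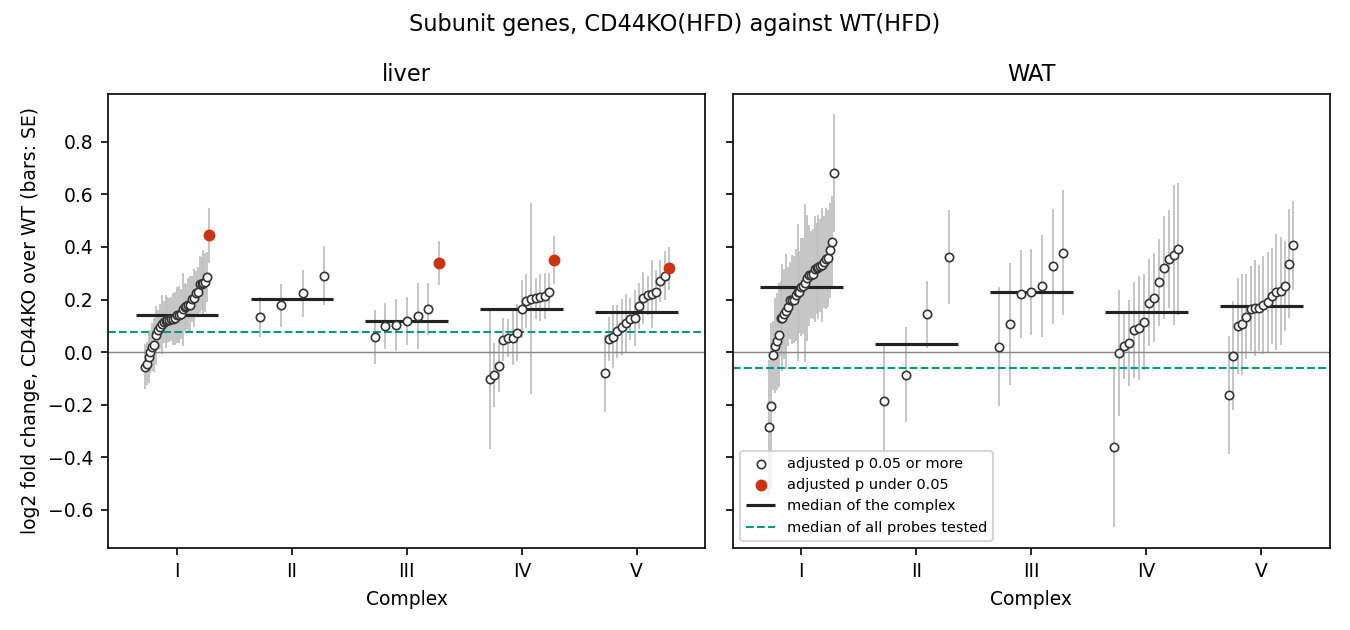
Log2 fold change of each subunit gene tested, CD44KO over WT, with its standard error (y axis), by complex (x axis), in liver and WAT. Red points passed an adjusted p of 0.05, black bars are the medians of the complexes, and the dashed line is the median of all probes tested. The medians run from 0.12 to 0.20 in liver and from 0.03 to 0.25 in WAT.

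The lift in liver was not spread evenly over the arrays. The median signal of the 77 subunits was 5.62, 5.80, 6.02, 6.11 and 6.04 in WT(HFD) liver and 6.15, 6.00, 5.96, 6.17 and 5.96 in CD44KO(HFD) liver, so the groups overlapped and WT(HFD) replicates 1 and 2 were below the other arrays. WT(HFD) replicate 1 was the lowest of the 10 arrays for 62 of 77 subunits, against 22.1% of all probes. Without it 62 subunits were above 0, and their median was 0.08 against 0.05 for all probes. The same array had the lowest summed signal of the 10 hepatocyte markers, 1879 times the 75th percentile, where the other WT(HFD) arrays reached 2607 and the CD44KO(HFD) arrays 2437 to 3173. Its 12 macrophage markers summed to 34.7 and its 9 fibroblast markers to 179, the highest among the WT(HFD) arrays, where the lowest were 14.9 and 123. In CD44KO(HFD) liver these lists summed to 13.4 to 28.1 and 94.4 to 122. All hepatocyte and fibroblast markers were well above background on some array of each group, and 1 macrophage marker was not in CD44KO(HFD) liver. Of the markers tested, 4 of 11 for macrophages and 5 of 9 for fibroblasts fell and 1 of 10 for hepatocytes rose in CD44KO(HFD) liver, against 5.75% of all probes lower and 7.85% higher. After normexp background correction these counts were 2, 5 and 0. The macrophage list was split, with 7 of the 11 below 0 and 4 above, from -4.40 to 2.28. Of the fibroblast markers 8 were below 0 and 1 above, and all 10 hepatocyte markers were above. The 11 adipocyte markers summed to 107 to 137 in WT(HFD) and 27.9 to 99.3 in CD44KO(HFD) liver, without overlap, and 1 of them was not well above background in either group. Of the 8 adipocyte markers tested, 5 were below 0 and 3 above, and 1 was called lower, against the same 5.75%. The part of these in the subunits' values was not tested.

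**Figure D3:**
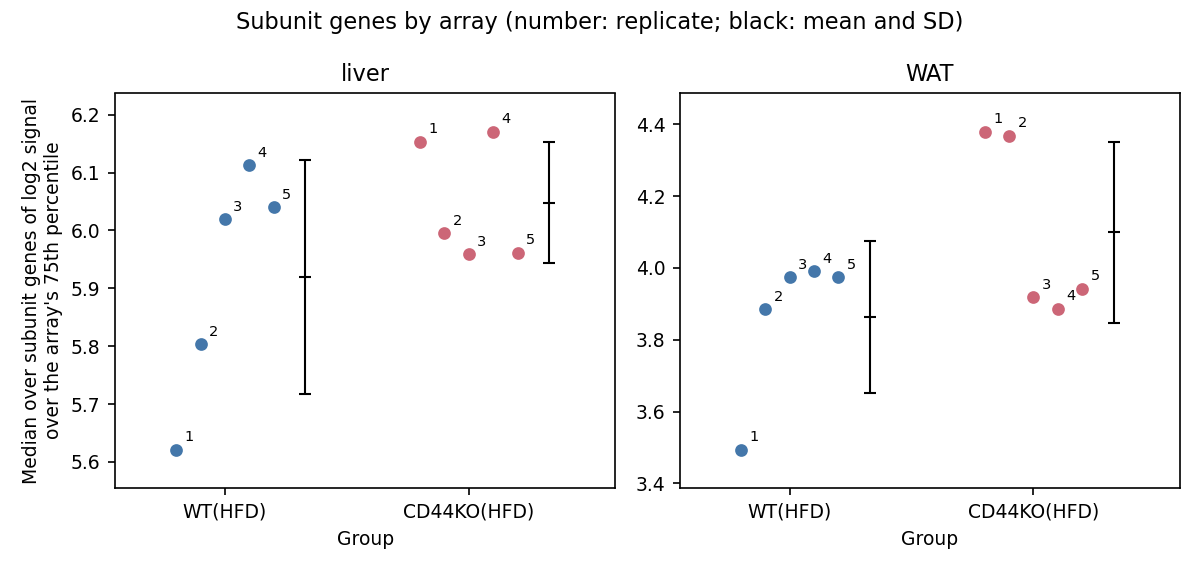
Median log2 signal over the subunit genes tested (y axis) on each array, by genotype, in liver and in WAT, with the replicate number beside each point and the mean and SD in black. WT(HFD) replicate 1 is lowest in both tissues, and CD44KO(HFD) replicates 1 and 2 are highest in WAT.

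In WAT, 76 subunits were tested and none passed the threshold in limma, where 0.0398% of all probes did, and 3 had an unadjusted p under 0.05, against 14.9% of all probes. These were Ndufb3, an accessory subunit of complex I, Ndufs1, the large iron-sulfur subunit of its core, and Atp5s, whose product is named for its link to ATP synthase but is no part of the enzyme. Ndufb3 read 3.85, 4.73, 4.46, 4.78 and 4.51 in WT(HFD) WAT and 5.49, 5.39, 5.26, 4.69 and 4.92 in CD44KO(HFD) WAT. Its difference of 0.68 on the log2 scale, with a standard error of 0.23 and an adjusted p of 0.234 in limma, was the highest of the subunits, and the groups overlapped in 1 CD44KO(HFD) array. Ndufs1 read 3.09, 3.69, 3.58, 3.66 and 3.66 against 3.88, 4.03, 4.33, 3.74 and 3.81. It was the only subunit without overlap in WAT, where 6.18% of all probes had none, at 0.42 on the log2 scale (adjusted p = 0.305, limma). The probe of Ndufb3 lies on chromosome 1 from 58846867 to 58846926 and that of Ndufs1 on chromosome 1 from 63384448 to 63384507 in mm7.

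By complex, the WAT medians were 0.25 for complex I, 0.23 for complex III, 0.15 for complex IV and 0.17 for complex V, the last of which was -0.02 with array weights. Complex II stood at 0.03, with Sdha at 0.36 and Sdhd at 0.14 above 0 and Sdhb at -0.09 and Sdhc at -0.19 below, and its median was -0.15 after quantile normalization and -0.10 without scaling. The other probe of Sdha was at -0.02 in WAT (adjusted p = 0.971, limma), so the probes of this gene differed. Complex III ran from 0.02 for Uqcrb, the ubiquinone-binding subunit, to 0.38 for Uqcrq. In complex IV, Cox7a2, the widely expressed isoform of subunit VIIa, had the highest value, 0.39 (adjusted p = 0.470, limma), and Cox6b2, the testis isoform of subunit VIb, the lowest, -0.36. In complex V, Atp5s was highest at 0.41 and Atp5g1 lowest at -0.16. The other probe of Atp5s was at -0.03 in WAT (adjusted p = 0.958, limma), so the probes of Atp5s differed as well. Ndufs8, the subunit with the largest rise in liver, was lowest in complex I in WAT, with 1.34, 0.95, 1.16, 1.32 and 1.40 in WT(HFD) mice and 1.55, 0.18, 1.29, 1.14 and 0.58 in CD44KO(HFD) mice, which overlap widely.

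Over all complexes 67 of 76 subunits were above 0 in WAT, against 44.7% of all probes, with a median of 0.21 against -0.06. Log2 fold changes in WAT moved with brightness, from a median of -0.65 in the dimmest of 10 equal bins of probes to 0.18 in the brightest, and 67 of the subunits were in the brightest bin, where 78.3% of probes were above 0. In liver the bins ran from 0.06 to 0.11. After quantile normalization, which shifted the median of all probes in WAT to 0.11, that of the subunits was 0.04, so they no longer stood above the array.

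**Figure D4:**
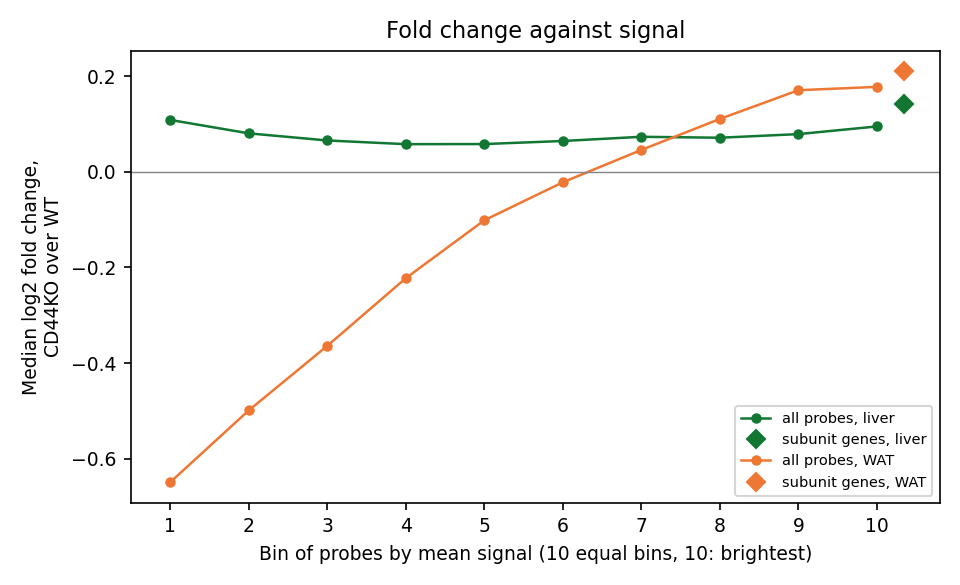
Median log2 fold change, CD44KO over WT (y axis), of all probes tested, in 10 equal bins by mean signal (x axis), for liver (green) and WAT (orange), with the medians of the subunit genes as diamonds at the right. In WAT the value climbs from -0.65 to 0.18 with the signal, and the subunits' 0.21 lies near the brightest bin.

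The WAT arrays were uneven. The median of the subunits was 3.49, 3.88, 3.97, 3.99 and 3.97 in WT(HFD) WAT and 4.38, 4.37, 3.92, 3.89 and 3.94 in CD44KO(HFD) WAT. Thus WT(HFD) replicate 1 was low, CD44KO(HFD) replicates 1 and 2 were high, and the other arrays of both genotypes lay between 3.88 and 3.99. WT(HFD) replicate 1 was lowest for 58 of 76 subunits, against 25.1% of all probes, and without it 59 subunits were above 0 with a median of 0.12. With array weights 42 subunits were above 0, and the median was 0.02, against -0.01 for all probes. On the first WAT slide, with 2 arrays of each genotype, the median difference was 0.35, against -0.17 for all probes. On the second, with 3 WT(HFD) arrays and 1 CD44KO(HFD) array, it was 0.08 with 42 of 76 above 0, against 0.10 for all probes, and the third slide held no WT(HFD) array. WT(HFD) replicate 1 also had the lowest summed signal of the 11 adipocyte markers, 642, and CD44KO(HFD) replicate 1 the highest, 1558, with the other arrays between. In WAT the sums of brown and beige adipocyte markers and of endothelial markers did not overlap between the genotypes. The 12 brown and beige markers, which include Cox7a1 and Cox8b, summed to 6.85 to 9.58 in WT(HFD) and 9.79 to 13.7 in CD44KO(HFD) WAT, with a median log2 fold change of 0.45 over 11 tested and none called. Of the 11, 8 were above 0 and 3 below. Ucp1, the uncoupling protein that defines these cells, was at -0.51, and Zic1 was well above background on no WAT array. The same list summed higher in liver, to 54.3 to 102 in WT(HFD) and 34.2 to 74 in CD44KO(HFD) mice. There, 3 of its markers in each group were well above background on no array. Its sum is thus not particular to fat. The 6 endothelial markers summed to 12.2 to 22.8 and 28.5 to 46.9. Hepatocyte markers summed to 18.6 to 52.7 and 42 to 75, with 9 of 10 above 0 and a median of 0.85. The 12 macrophage markers summed to 268 to 457 in WT(HFD) and 232 to 384 in CD44KO(HFD) WAT, the 6 mesothelial markers to 2.68 to 12.1 and 1.16 to 3.76. The mesothelial list summed higher in liver, to 137 to 203 in WT(HFD) and 81.8 to 144 in CD44KO(HFD) mice, so its sum is not particular to fat either. The 8 epididymis markers summed to 2.43 on WT(HFD) replicate 1 and at most 0.29 on any CD44KO(HFD) array. Their median over the WT(HFD) WAT arrays was 0.087 and the lowest 0.043, so replicate 1 stood apart in its own group. The markers of these lists were well above background on some array of each WAT group, but for Zic1 and for 1 epididymis marker in CD44KO(HFD) WAT. The part of these in the subunits' values was not tested.

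Both tissues could be compared for 77 subunits. The effect of the genotype differed between WAT and liver for none of them in the limma interaction term, against 1.15% of all probes, and 1 had an unadjusted p under 0.05, against 15.8%. That subunit was Ndufs8, at -0.73 with a standard error of 0.28 and an adjusted p of 0.209, since its signal was 0.44 higher in CD44KO(HFD) liver and 0.29 lower on average in CD44KO(HFD) WAT. It passed with array weights, with an adjusted p of 0.0205, as did Cox7c with 0.0418, where 8.54% of all probes passed. Of 76 subunits tested in both tissues 61 had log2 fold changes above 0 in both and Cox6b2 alone was below 0 in both. The median difference, WAT less liver, was -0.20 over the 4 complex II genes and 0.10 over the 35 complex I genes. Over all probes tested it was -0.13, so complex II lay near the array and complex I above it. These comparisons use arrays of separate slides for each tissue. They treat liver and WAT samples as independent, though the labels do not say whether they share mice.

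Several subunits have isoforms that differ between tissues, and the WT(HFD) arrays showed how their levels stood in the tissues. Relative to the 75th percentile of each array, 74 of 77 subunits were lower in WT(HFD) WAT than in WT(HFD) liver, 1 was higher and 2 did not pass, against 34.7% of all probes lower and 33.5% higher (68.3% called). The median difference was -1.95, from -2.24 for complex III to -1.71 for complex V. Without scaling between arrays it was 0.16, with 30 subunits higher and 10 lower, where the median of all probes was 2.06, so the lower level holds only relative to the other genes on the array. Liver and WAT arrays were on different slides, so tissue and slide cannot be told apart. The largest differences were those of Uqcrq at -3.26, a small complex III subunit, Atp5k at -2.98 and Atp5g1 at -2.95.

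The subunit that was higher in WAT was Cox6a2, the heart and skeletal muscle isoform of subunit VIa. It read -2.26, -2.71, -2.20, -3.18 and -2.49 in WT(HFD) liver and -0.32, -0.28, 0.18, 0.23 and -0.43 in WT(HFD) WAT, with no overlap (difference 2.45 with a standard error of 0.22, and an adjusted p of 4.36e-06 in limma). The 15 skeletal and cardiac muscle markers summed to 1.46 to 2.0 in WT(HFD) liver and to 5.28 to 9.76 in WT(HFD) WAT, and the part of muscle in the Cox6a2 signal was not tested. Cox6a1, its widely expressed counterpart, was at -1.72 in WAT relative to liver. Between the genotypes Cox6a2 had log2 fold changes of -0.10 in liver and 0.37 in WAT, and Cox6a1 of 0.05 and 0.21, none past the threshold. Cox7a2l, which encodes a factor that joins complexes III and IV, had the smallest difference between the tissues among the genes tested (-0.29, adjusted p = 0.0991, limma).

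The testis and lung isoforms were dim. Cox8c, of testis, was well above background on no liver array and on 1 array of each genotype in WAT, and was not tested. Cox4i2, the lung isoform of subunit IV, was well above background on 3 of 5 arrays of each genotype in liver, at 0.20 on the log2 scale (adjusted p = 0.740, limma), and on 2 WT(HFD) arrays and 1 CD44KO(HFD) array in WAT. Cox4i1, the main isoform, read 7.73, 7.73, 7.99, 7.88 and 7.99 in WT(HFD) liver and 8.25, 7.98, 8.03, 8.15 and 7.97 in CD44KO(HFD) liver, which overlap (0.21 on the log2 scale, adjusted p = 0.126, limma). In WAT it was at 0.35 (adjusted p = 0.394, limma). Ndufa4, listed here with complex I by its name but now held to be a subunit of complex IV, was at 0.13 in liver and 0.29 in WAT. Cox4nb is a member by its name only, is no subunit, and was at 0.05 and 0.02.

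**Figure D5:**
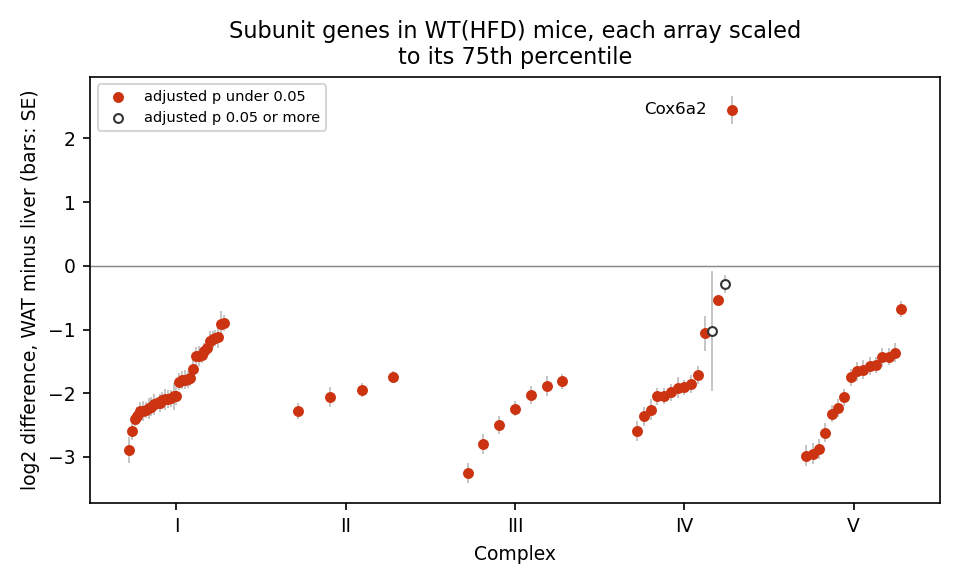
Difference in log2 signal over the array's 75th percentile between WT(HFD) WAT and WT(HFD) liver, with its standard error (y axis), for each subunit gene tested, by complex (x axis). Red points passed an adjusted p of 0.05. Cox6a2 stands at 2.45, and every other subunit lies below 0 on this scale.

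Some subunits fell outside the naming rule. Ndufs3, a core subunit of complex I, was at 0.24 in liver and 0.27 in WAT, and Cox7a1 and Cox8b, isoforms of heart, muscle and brown fat, were at -0.20 and -0.19 in liver and at 0.68 and 0.57 in WAT, none past the threshold. Subunits under older names in the files, those now called Atp5md, Atp5mpl, Ndufv3 and Uqcr10, had medians of 0.08 in liver and 0.18 in WAT, with none of the 4 called. The members' other probes, 26 tested, gave medians of 0.19 in liver, with 2 called, those of Atp5h and Sdha, against 13.6% of all probes, and 0.12 in WAT, with none.

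Assembly factors, which build the complexes but are no part of them, were measured for 18 genes. In liver all 18 were above 0 with a median of 0.23, against 61.3% of all probes above 0, and 4 rose, against 7.85% of all probes. These were Foxred1, needed for complex I, at 0.36, Cox10, which makes the haem of complex IV, at 0.46, Cox11, which brings it copper, at 0.29, and Tmem70, needed for ATP synthase, at 0.34. In WAT 15 of 18 were above 0, with a median of 0.27 and none called. The 12 regulators of mitochondrial genes had a median of 0.21 in liver, where 4 rose, against the same 7.85%, and none fell. They were Polrmt, the mitochondrial RNA polymerase, at 0.46 (adjusted p = 0.00952, limma), Tfb2m, its partner in transcription, at 0.38, Tfb1m, a ribosomal RNA methyltransferase, at 0.36, and Gabpa at 0.32, a subunit of the factor GABP. The coactivators Ppargc1a and Ppargc1b were at 0.01 and 0.26, Esrra at 0.16, Nrf1 at 0.02 and Tfam, the packaging factor of mitochondrial DNA, at -0.24, none past the threshold. In WAT none of the 12 was called, with a median of 0.14. After normexp background correction none of either list was called in liver, where the medians were 0.15 for assembly factors and 0.17 for regulators.

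The enzymes of the citric acid cycle and the pyruvate dehydrogenase complex, which feed the chain with NADH, were measured for 18 genes. In liver 1 of the 18 rose (7.85% of all probes did), Pdhx, the component X of pyruvate dehydrogenase, at 0.45, and the median was 0.15. After normexp background correction none was called and the median was 0.03. In WAT 17 of 18 were above 0 with a median of 0.36, none was called, and the highest was Sucla2, a subunit of succinyl-CoA ligase, at 0.61 (adjusted p = 0.192, limma).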

How the data were processed

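Liver and WAT RNA, labelled with Cy3, was hybridised to 20 Agilent mouse 44k arrays. The authors deposited linear intensity values from Feature Extraction 9.5.3.1, corrected for trends within each array but not scaled between arrays, and the paper's methods name no test for the arrays. The matrix of the series holds the same processed signals as the feature files. Spots other than controls numbered 43379 on each array, and spots marked as outliers were left out.

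Log2 values of the processed signal were taken relative to the array's 75th percentile, and replicate spots were averaged by probe. Testing covered the probes that exceeded the background by 13 SD (well above background) on 3 or more of the 5 arrays in any group compared, 24689 in liver, 27653 in WAT, 28988 for the difference between tissues and 28364 between the tissues of WT(HFD) mice. Comparisons used limma 3.58.1 in R 4.3.3 with statmod 1.5.0, Benjamini-Hochberg adjustment over all probes tested and a threshold of 0.05. For single genes, 252 relabellings of the arrays gave a two-sided exact permutation test. The number of arrays limits the precision. Promoters came from RefSeq, build GRCm38.p6, and were searched in Python 3.11.15. Figures used matplotlib 3.10.9.

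On simulated arrays the liver test recovered 5.97% of changes of 0.3 log2 and 68.7% of changes of 1 log2 over 24663 probes, and the WAT test 0% and 19.4% over 27509 probes. In each, 67 probes were changed by 0.3, 67 by 1 and 66 by 2 log2. The simulation made 124 calls in liver and 61 in WAT, where the data had 3358 and 11. Adjusted p-values depend on the share of probes changed, so these recoveries do not carry over to the data as such.

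The genes, the lists and the rule for named genes were chosen with earlier results of these data known. Genes named were those past the threshold, the lowest and highest of each complex in each tissue, and subunits known to have tissue isoforms; Ndufs1, Ndufab1, Cox5a, Atp5a1, Atp5c1, Atp5f1 and Sdhd were named after their values were seen. The lists were cytochrome c, regulators, assembly factors, citric acid cycle enzymes, carriers, import, the F1 inhibitor and related genes, mitochondrial and cytosolic ribosomal proteins, and cell markers. Alternatives were background correction, scaling, filter, slide, replicate block, array weights, probe choice, 1 fit of all arrays and each array left out.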

Additional observations from a re-analysis of the deposited data

Results flagged for a closer look

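Among groups of 5 arrays, single arrays far from the other 4 were looked for in the named subunits and in the complex medians, and 12 were found among 130 groups, where chance gives about 1 in 20. Most were WT(HFD) WAT replicate 1, which lay below the other 4 for Atp5b at 6.17, Atp5k at 1.76, Atp5s at -0.40, Cox7a2 at 2.81, Ndufa4 at 3.92 and Uqcrq at 4.77. Its medians were likewise low, at 3.49 over all subunits, 3.46 for complex I, 2.83 for complex IV and 4.39 for complex V. CD44KO(HFD) WAT replicate 1 was above the other 4 for Cox6a1, at 7.94 where they reached 7.51. WT(HFD) liver replicate 3 was above the other 4 for Cox6b2, at -1.25 where they reached -1.51.

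Cox8a, a subunit of complex IV, had all 5 CD44KO(HFD) arrays under the WT(HFD) mean in liver and all 5 over it in WAT, and the difference of 0.38 did not pass the limma interaction term (adjusted p = 0.412).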

How the results depend on the processing

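In liver the count of 4 subunits called, with 13.6% of all probes, was 0 after normexp background correction (2.6% of all probes called), without a filter on dim probes (2.49%), in 1 fit of all 20 arrays (2.93%) and, chosen after seeing the data, without scaling between arrays (4.65%). It was 2 after quantile normalization (13.2%) and 7 with array weights (19.1%). It ran from 0 to 10 with each array left out, where all probes ran from 3.48% to 18.8%, the latter with 5 subunits. In WAT the count of 0 was 1 with array weights (10.2%) and 1 in the fit of all 20 arrays (6.57%), where Ndufb3 passed, and was 0 with each array left out (0.0108% to 0.0687%). For the difference between tissues it was 2 with array weights (8.54%), both lower in WAT, and 0 with each array left out. Between the tissues of WT(HFD) mice the 75 called were 40 without scaling between arrays (82.1%), and 75 to 76 with each array left out.

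The median of the subunits was above 0 under all alternatives run but ranged from 0.04 to 0.18 in liver and from 0.02 to 0.26 in WAT, where array weights gave the lowest value. The medians of complex III in liver, of complex II in WAT and of complex V in WAT fell below 0 under some of them. No called gene changed direction.

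The labels do not say whether liver and WAT arrays of the same number come from the same mouse. The fits across tissues treated them as independent. Same-numbered arrays of the genotypes had deviations correlated at -0.21 to 0.42, and those of the tissues at -0.19 to 0.14. The best match bore the same number for WT(HFD) replicate 4 between genotypes in liver, and for replicate 5 between tissues in each genotype. With a replicate block the liver count was 0 (5.38%), the WAT count 0 (0.0108%), and the others 0 and 75.

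Signals and array numbers limit what can be seen. Changes of 0.3 log2, near the size of those called in liver, were seldom recovered in a simulation with far fewer changed probes than the liver data had calls. The recovery at the data's own share of calls was not tested. The absence of a call does not show that a subunit was unchanged.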

Other observations

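Other lists of mitochondrial and ribosomal genes were read against the 7.85% of all probes that were called higher in liver. There, 11 of 75 mitochondrial ribosomal proteins rose and none fell, with a median log2 fold change of 0.19. Cytosolic ribosomal proteins, which have no part in respiration, had 6 of 77 higher, none lower, 74 above 0 and a median of 0.16. Of 18 genes of mitochondrial protein import 3 rose, Timm9 at 0.46, Tomm40 at 0.43 and Timm8a1 at 0.32, with a median of 0.10. Of 16 carriers and membrane proteins 1 rose, Slc25a11, the oxoglutarate carrier, at 0.31, with a median of 0.14. None of the genes of these 4 lists was called after normexp background correction, where the median of import was -0.01. The 1 cytochrome c gene tested was at 0.04, and -0.05 after normexp, and Atpif1, the inhibitor of ATP synthase, was at -0.28 (adjusted p = 0.0551, limma).

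In WAT no gene of these lists was called in limma. The medians were 0.23 for mitochondrial ribosomal proteins, 0.08 for cytosolic ribosomal proteins, 0.26 for import, 0.26 for carriers and 0.32 for the cytochrome c gene, and 0.05 for the 2 genes of the F1 inhibitor list. After quantile normalization cytosolic ribosomal proteins were at -0.08 and the F1 inhibitor list at -0.14. All 11 adipocyte markers were above 0, with a median of 0.63, all 6 endothelial markers with 0.66, and all 4 erythroid markers with 1.17, while all 12 macrophage markers were below 0 with -0.33. Of 10 T cell markers 9 were below 0 with a median of -1.04, and all 6 mesothelial markers with -2.07. After quantile normalization the medians were 0.44, 0.57 and 0.99 for adipocyte, endothelial and erythroid markers. They were then -0.48, -0.35 and -1.93 for macrophage, T cell and mesothelial markers. Of all probes tested in WAT 44.7% were above 0, from 17.5% in the dimmest of 10 equal bins to 78.3% in the brightest. In liver 5 of 9 T cell markers fell, against 5.75% of all probes, and none after normexp background correction.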
